A study of Mus musculus with 4 samples.

Results

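The replication-dependent core histones are the H2A, H2B, H3 and H4 genes that supply the octamers around which newly made DNA is wound. Their signals were compared between cultured mouse T cells of a Tc1 group (Tc1 cytokine condition) and a Tc9 group (Tc9 cytokine condition), with 2 Affymetrix arrays each, 4 in all. Tc1 is the usual name for interferon gamma-producing CD8 T cells and Tc9 for those producing interleukin 9, and the study asked how gene expression differs between them. Members were chosen by gene symbol in the platform annotation, with the highest-mean probe set for each gene. The rule found 49 genes among 19505 named genes, each with 1 probe set: 13 of H2A, 15 of H2B, 10 of H3 and 11 of H4. Another 8 symbols of the RefSeq gene table fit the pattern and were not analysed here. The linker histones carry other symbols in this annotation and are not among the 49.

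The sources used here do not give the cytokines, culture time, mouse strain or cell source, nor any allele or agent that the groups share. The labels do not say whether arrays numbered 1 and 2 stand for separate cultures or separate animals, so the p-values measure only the spread between these arrays, which may be technical. The labelled cell type was checked on its markers: all 5 CD8 T cell genes examined (Cd8a, Cd8b1, Cd3e, Cd3d and Cd2) lay above the 95th percentile of the negative-control probe sets on every array. All 11 measured markers of CD4 T cells, B cells, myeloid cells and NK cells lay below that level on all 4 arrays. Both arrays numbered 2 had been deposited at a higher level than both numbered 1, with median intensities of 57.3 (Tc1) and 57.1 (Tc9) against 37.1 and 37.9. Array number is therefore treated as a possible processing difference. Culture and processing cannot be told apart.

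Core histone genes lie in clusters, have no introns and are transcribed mainly in S phase, when DNA is copied. Their mRNAs are unusual in ending in a conserved stem-loop in place of a poly(A) tail. The stem-loop binding protein, encoded by Slbp, holds that end through processing, export and translation. NPAT drives transcription of the clusters, and HINFP acts on H4 genes. An activated CD8 T cell divides rapidly, so such cultures need new histones. How the RNA was primed for labelling, which decides whether mRNAs without a poly(A) tail are copied, is not stated in the labels, and its part in these signals was not tested.

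Promoters of 44 of the 49 genes were found in RefSeq sequences of GRCm38.p6, 38 on chromosome 13 and 6 on chromosome 3. H2bc21, H2bc4, H3c1, H3c7 and H4c14 were not among them. The 250 bases before each start site were searched on both strands for CCAAT (the CCAAT box), ATTTGCAT (the octamer bound by OCT factors), TATAAA (the TATA box) and GGTCCG (the core of the H4-specific element). Neighbouring matches may share end bases. The 5 sequences below are examples from members that recur in the results: H2ac13 and H2ac10, which were lower in Tc9 in both array numbers, H2bc14 with its octamer, H3c8, and H4c4 with the H4 element. Each runs 5′ to 3′ towards the start site, and capitals mark the letters searched, in either orientation.
H2ac13: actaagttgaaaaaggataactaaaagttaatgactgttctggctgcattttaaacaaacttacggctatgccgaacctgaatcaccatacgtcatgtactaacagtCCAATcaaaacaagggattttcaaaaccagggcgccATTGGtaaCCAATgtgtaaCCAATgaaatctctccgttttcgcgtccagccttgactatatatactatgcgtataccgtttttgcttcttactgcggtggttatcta
H2bc14: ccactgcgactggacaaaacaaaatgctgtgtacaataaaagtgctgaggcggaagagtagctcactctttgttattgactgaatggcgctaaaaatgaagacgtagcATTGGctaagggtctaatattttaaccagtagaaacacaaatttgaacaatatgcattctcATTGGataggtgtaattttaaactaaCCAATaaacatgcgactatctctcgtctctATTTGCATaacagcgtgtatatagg
H2ac10: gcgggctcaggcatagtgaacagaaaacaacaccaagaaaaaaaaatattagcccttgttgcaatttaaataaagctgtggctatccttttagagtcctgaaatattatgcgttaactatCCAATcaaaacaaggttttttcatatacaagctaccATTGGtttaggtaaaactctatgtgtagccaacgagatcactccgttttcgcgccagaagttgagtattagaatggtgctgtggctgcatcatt
H3c8: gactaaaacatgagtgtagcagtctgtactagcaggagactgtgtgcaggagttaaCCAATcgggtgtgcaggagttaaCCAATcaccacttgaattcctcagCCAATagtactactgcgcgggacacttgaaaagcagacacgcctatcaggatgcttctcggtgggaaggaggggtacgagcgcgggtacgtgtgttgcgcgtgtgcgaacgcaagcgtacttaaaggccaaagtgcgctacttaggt
H4c4: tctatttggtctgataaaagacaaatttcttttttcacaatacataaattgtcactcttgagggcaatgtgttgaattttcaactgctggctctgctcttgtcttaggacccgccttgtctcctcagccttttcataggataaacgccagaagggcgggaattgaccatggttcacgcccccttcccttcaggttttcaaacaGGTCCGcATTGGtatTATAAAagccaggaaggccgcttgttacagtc

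All 5 lie on chromosome 13 of GRCm38.p6: H2ac13 at chr13:21716162-21716411 on the plus strand, H2bc14 at chr13:21721794-21722043 (plus), H2ac10 at chr13:23533625-23533874 (plus), H3c8 at chr13:23535168-23535417 (plus) and H4c4 at chr13:23581318-23581567 (plus). In H2bc14 the octamer ends 18 bases before the start site, counted from the annotated start. In H4c4 the H4 element core ends 42 bases before it and the TATA box 27 bases before it.

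The promoters divided by histone type. CCAAT was found in 13 of 13 H2A and 13 of 13 H2B windows, in 6 of 8 H3 windows and in 3 of 10 H4 windows, against 37.5% of the genes in the promoter table. The octamer was found in 6 of 13 H2A and 6 of 13 H2B windows and in 0 of 8 H3 and 0 of 10 H4 windows, against 1.81% of all. GGTCCG was found in 7 of 10 H4 windows, 1 of 8 H3, 1 of 13 H2B and 0 of 13 H2A, against 7.69% of all. TATAAA was found in 21 of the 44, against 14.3% of all. These are matches of letters in windows, and the windows of paired H2A and H2B genes overlap and so are not separate counts.

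Within these limits, no core histone gene passed the test between Tc9 and Tc1 cells unless array number was taken as a block. By limma on log2(normalised intensity + 16), 0 of the 49 passed an adjusted p of 0.05, a threshold that 0.564% of all genes passed. At an unadjusted p under 0.05 there were also 0 of 49, against 5.28% of all genes. Among the 7767 genes above the negative-control level on at least 1 array, 361 lower and 498 higher genes had such a p. With array number as a block 9 of 49 passed, 8 lower and 1 higher in Tc9, against 7.37% and 6.34% of all genes. Of the 7767 genes above the negative-control level on at least 1 array, 1207 passed as lower and 1068 as higher. Most members lie above that level, so these genes are the nearer background. With the block and no intensity trend in the variance 0 of 49 passed, against 3.41% of all genes lower and 3.9% higher. The median log2 change, Tc9 minus Tc1, was -0.09 over the 49 genes, against -0.0027 over all genes. It was -0.06 for H2A, -0.10 for H2B, -0.12 for H3 and 0.01 for H4. Of the 49 changes 35 were negative, against 50.7% of all genes. In cultures of many cells, fewer cells in S phase and less histone mRNA per cell cannot be told apart.

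For most members above background the fit without a block bounded the change only to within 2-fold, a wide limit beside the changes seen. The 95% interval of H2ac1, the widest after that of H4c9, ran from -0.82 to 0.71 on the log2 scale. That of H4c1, with the smallest standard error, ran from -0.35 to 0.20. Log2 changes of the 49 ran from -0.28 to 0.30, and their standard errors from 0.12 to 0.45, with a median of 0.16. The 95% interval of the limma fit, unadjusted for the number of genes, lay within a 2-fold change in either direction for 45 of the 46 members above the negative-control level on at least 1 array, and for 88.2% of all genes above it on at least 1 array. The other 3 members are too dim to be read this way, since the added 16 narrows their intervals. The exception was H4c9, with an interval of -1.31 to 0.84. H3c14 and H3c15 had identical values on all 4 arrays and are in effect 1 measurement. With 2 arrays against 2, an exact permutation test of a single gene cannot go below p = 0.333.

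**Figure D1:**
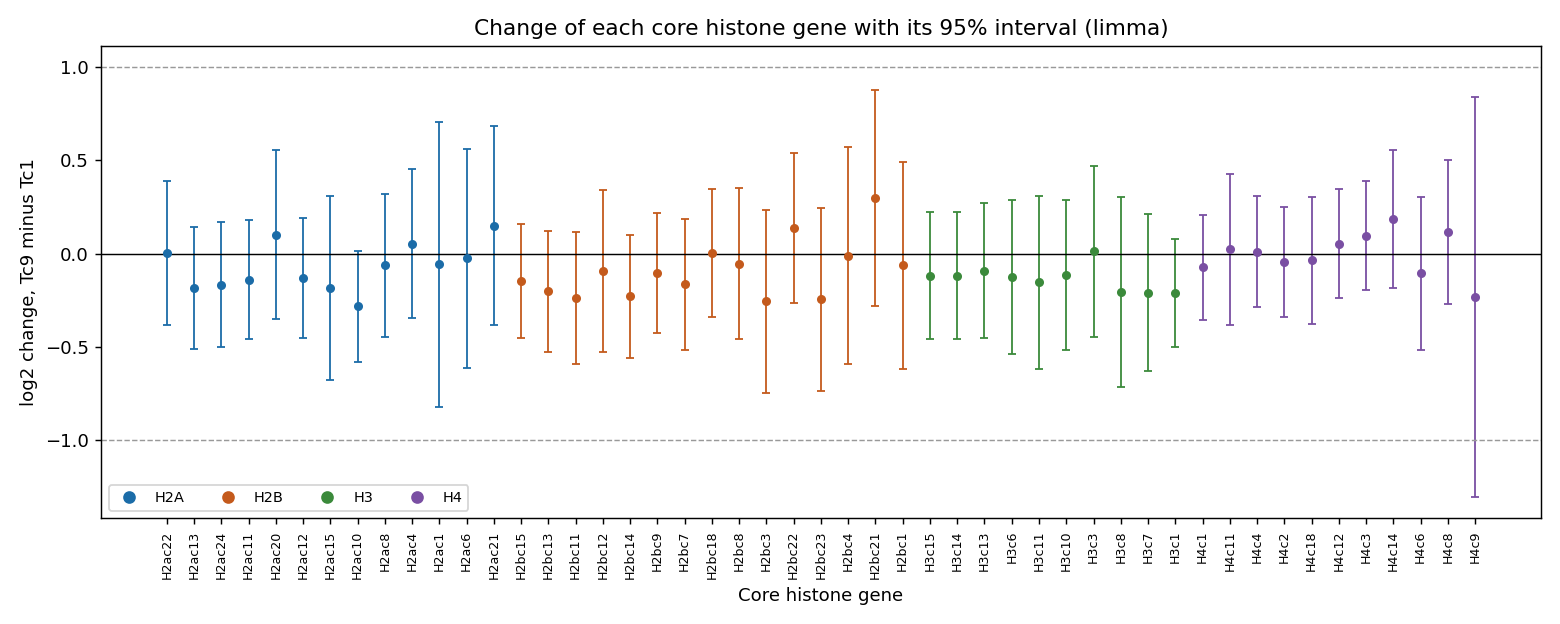
Log2 change, Tc9 minus Tc1, of each of the 49 core histone genes (points), coloured by histone type. Bars are the 95% interval of the limma fit without a block. The dashed lines mark a 2-fold change in either direction, and the interval of H4c9 alone crosses one of them, reaching -1.31.

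H2A genes encode the partner of H2B in the dimers that flank the central tetramer of the nucleosome. Values are given in the order number 1, number 2. H2ac22 measured 4208 and 3350 in Tc1 and 4243 and 3337 in Tc9 (log2 change 0.0032 ± 0.16, SE). Its groups overlapped, and each array lay next to the array of the same number from the other cell type. H2ac13 measured 3592 and 3304 in Tc1 and 3368 and 2724 in Tc9 (-0.18 ± 0.14, limma adjusted p = 1.00). H2ac24 measured 3147 and 2890 in Tc1 and 2999 and 2400 in Tc9 (-0.17 ± 0.14). Both were lower in Tc9 within each number, and across numbers their groups overlapped.

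The most negative change among all 49 belonged to H2ac10. It measured 2067 and 2300 in Tc1 and 1708 and 1873 in Tc9, so that both Tc9 values lay below both Tc1 values. The log2 change was -0.28 ± 0.13 (SE; limma adjusted p = 0.993), with -0.27 and -0.29 in the numbers 1 and 2 and a 95% interval of -0.58 to 0.016. At the other end of the type, H2ac21 measured 122 and 135 in Tc1 and 131 and 158 in Tc9 (0.15 ± 0.23), below the negative-control level on 3 of the 4 arrays. The other 8 H2A genes were H2ac1, H2ac4, H2ac6, H2ac8, H2ac11, H2ac12, H2ac15 and H2ac20, with log2 changes from -0.19 for H2ac15 to 0.10 for H2ac20.

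H2B genes showed the most members with separated groups. Of the 15, 7 had both Tc9 arrays below both Tc1 arrays and 2 had both above. For the 49 members together these counts were 9 and 3. Over all genes, both Tc9 arrays lay below both Tc1 arrays in 15.1% and above in 14% of cases. Of the 7767 genes above the negative-control level on at least 1 array, 1488 were separated as lower and 1438 as higher. H2bc15 measured 1351 and 1242 in Tc1 and 1187 and 1148 in Tc9 (log2 change -0.15 ± 0.13). H2bc13 measured 1233 and 1078 in Tc1 and 997 and 1004 in Tc9 (-0.20 ± 0.14; limma adjusted p = 1.00). H2bc11 measured 1268 and 1050 in Tc1 and 1022 and 932 in Tc9 (-0.24 ± 0.15). In these 3 genes the lowest Tc1 array lay above the highest Tc9 array, by a small margin in each.

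H2bc14, whose promoter carries the octamer shown above, measured 856 and 914 in Tc1 and 723 and 782 in Tc9 (log2 change -0.23 ± 0.14), again without overlap. H2bc7, H2bc9 and H2bc23 were the other 3 with separated, lower Tc9 values. H2bc3 had the lowest change of the type, at 371 and 500 in Tc1 and 323 and 396 in Tc9 (-0.26 ± 0.21), and its Tc1 array numbered 1 lay below its Tc9 array numbered 2. H2bc22 went the other way, from 302 and 294 in Tc1 to 323 and 335 in Tc9 (0.14 ± 0.17). H2bc21 had the most positive change of the 49, at 0.30 ± 0.25, from 60.1 and 49.6 to 63.8 and 78.5, below the negative-control level on all 4 arrays. H2bc1, known as a testis H2B, also lay below it on all 4 arrays, and H2bc4 on 2 of them. H2bc8, H2bc12 and H2bc18 completed the type, with changes of -0.05, -0.09 and 0.0037.

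H3 genes encode the histone that, with H4, forms the central tetramer and whose tail carries many regulatory marks. The indistinguishable H3c14 and H3c15 measured 3565 and 2959 in Tc1 and 3251 and 2752 in Tc9 (log2 change -0.12 ± 0.14). H3c13 measured 3430 and 2810 in Tc1 and 3230 and 2627 in Tc9 (-0.09 ± 0.15). In each of these the difference between the array numbers was larger than that between the cell types, and the groups overlapped. H3c7 had the lowest change among the well measured H3 genes, from 617 and 559 to 575 and 445 (-0.21 ± 0.18), and H3c3 the highest, from 1709 and 1279 to 1716 and 1298 (0.01 ± 0.19).

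H3c8 measured 1597 and 1170 in Tc1 and 1409 and 992 in Tc9 (log2 change -0.21 ± 0.22; -0.18 and -0.23 in the numbers). With H3c14 and H3c15 counted once and the dim H3c1 left out, 7 of 8 H3 measurements were lower in Tc9 within both numbers, as were 39.3% of all genes above the negative-control level on at least 1 array. The exception was H3c3. H3c1 measured 15.7 and 18.6 in Tc1 and 14.2 and 10.9 in Tc9, below the negative-control level on all 4 arrays, so that its change could not be measured reliably. H3c6, H3c10 and H3c11 ranged from -0.15 to -0.11.

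H4 genes, which carry the GGTCCG core in most of their promoters, showed no common direction. H4c1 measured 3868 and 4383 in Tc1 and 3760 and 4062 in Tc9 (log2 change -0.07 ± 0.12). H4c11 measured 2315 and 3007 in Tc1 and 2396 and 2996 in Tc9 (0.02 ± 0.17). H4c4 measured 2320 and 2117 in Tc1 and 2368 and 2105 in Tc9 (0.01 ± 0.13). All 3 overlapped between the cell types.

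H4c14 had the most positive change of the H4 genes, from 1258 and 1096 in Tc1 to 1490 and 1203 in Tc9 (log2 change 0.19 ± 0.16; 0.24 and 0.13 in the numbers). H4c9 had the most negative, from 580 and 262 in Tc1 to 502 and 215 in Tc9 (-0.23 ± 0.45). Its signal on the arrays numbered 2 was less than that on the arrays numbered 1 in both cell types, with a log2 difference, number 2 minus number 1, of -1.13, the largest in size among the 49. H4c3 was the only H4 gene with separated groups, at 1624 and 1501 in Tc1 and 1637 and 1704 in Tc9. H4c2, H4c6, H4c8, H4c12 and H4c18 ranged from -0.11 to 0.12. Of the 11 H4 genes 6 had opposite signs in the array numbers. In the other types 3 of 13 H2A, 3 of 15 H2B and 0 of 10 H3 genes did. The share was 37.8% of all genes and 25.1% of those above the negative-control level on at least 1 array. The types were not tested against each other.

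**Figure D2:**
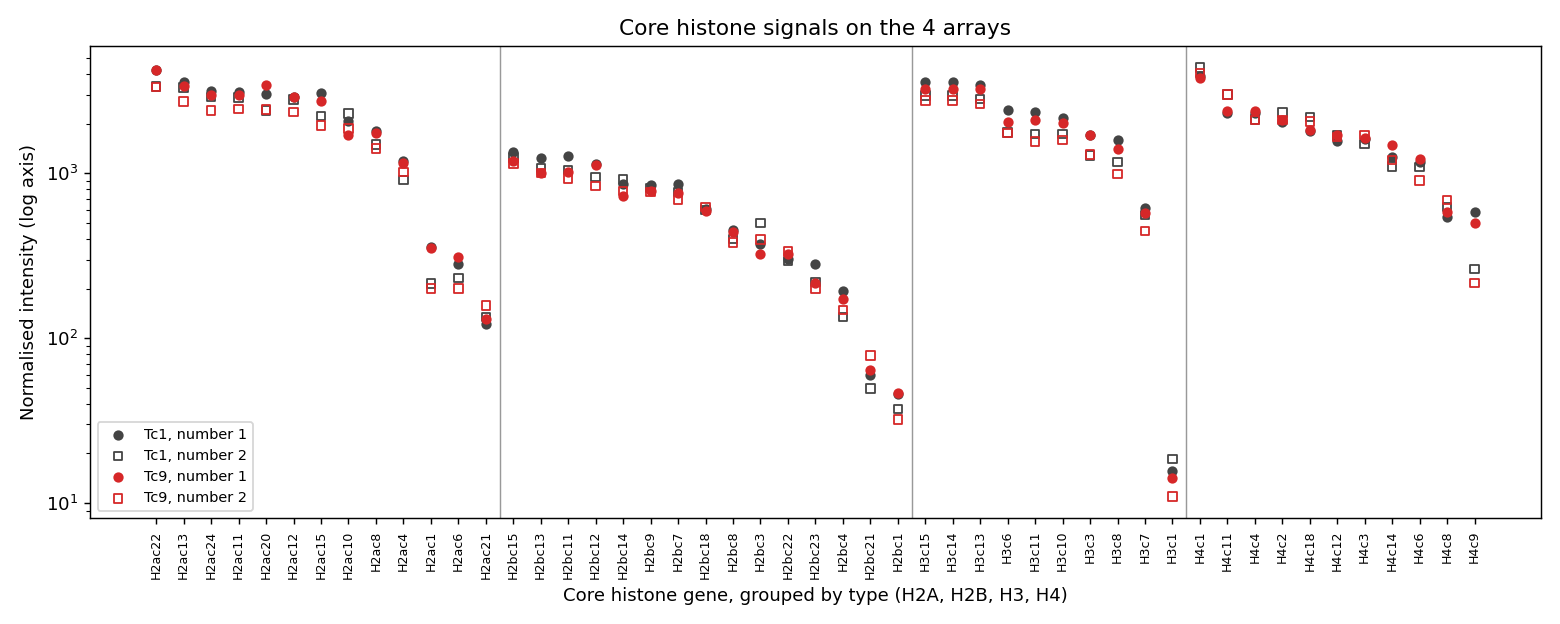
Normalised intensity (log axis) of each core histone gene on the 4 arrays, grouped by type; circles are arrays numbered 1 and squares arrays numbered 2, dark for Tc1 and red for Tc9. In H2ac10 both red symbols lie below both dark symbols, while in H4c9 the circles (580 and 502) lie well above the squares (262 and 215) whatever the cell type; heights of different genes are not comparable because each probe set has its own response.

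Differences between array numbers exceeded those between cell types in most members. The absolute difference between numbers exceeded that between cell types in 36 of 49 genes and in 64.1% of all genes, with medians of 0.23 and 0.12 on the log2 scale. Over all genes the medians were 0.18 and 0.11. Among the 7767 genes above the negative-control level on at least 1 array they were 0.21 and 0.15. In 58.6% of those genes the number difference was the larger. All 10 H3 genes and 11 of 13 H2A genes were higher on the arrays numbered 1, with a median difference, number 2 minus number 1, of -0.31 for H3 and -0.28 for H2A. For H2B it was -0.09 and for H4 0.04, against -0.0064 over all genes. The number difference was thus unequal among the types, and its cause was not tested.

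**Figure D3:**
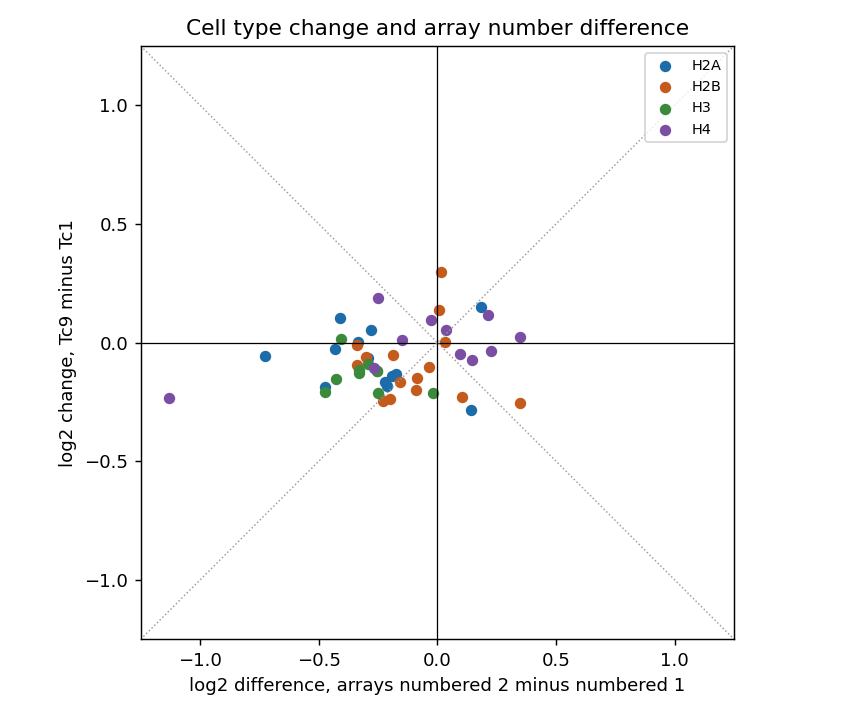
Each point is 1 of the 49 core histone genes, coloured by type: the horizontal axis gives the log2 difference between arrays numbered 2 and 1, the vertical axis the log2 change between Tc9 and Tc1, and the dotted diagonals mark equal sizes. H3 points all lie left of 0, and 36 of 49 points lie nearer the horizontal than the vertical axis, H4c9 farthest out at -1.13.

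Within the numbers, the median log2 change of the 49 genes was -0.04 for number 1 and -0.10 for number 2. It was -0.04 and -0.19 for H2A, -0.15 and -0.11 for H2B, -0.12 and -0.11 for H3, and 0.05 and -0.03 for H4. In both numbers 29 of 49 genes were lower in Tc9 and 8 were higher, against 32.0% and 30.1% of all genes. Among genes above the negative-control level on at least 1 array the shares were 39.3% and 35.3%. With the array number as a block in the limma fit, 8 members passed as lower (H2ac10, H2ac13, H2ac15, H2ac24, H2bc11, H2bc13, H2bc14 and H3c8) and 1 as higher (H4c14). Over all genes 7.37% passed as lower and 6.34% as higher. Of the 7767 genes above the negative-control level on at least 1 array, 1207 and 1068 did. The 9 members had block adjusted p values (limma) from 3.04e-05 for H2ac10 to 0.0468 for H4c14. That fit leaves 1 residual degree of freedom. Its p-values therefore rest on the variance trend over all genes and hardly on each gene's own spread. When the block was fitted without the intensity trend, 0 of the 49 passed. Leaving out an array unbalances the numbers, and moved the median to 0.016 without the Tc1 array numbered 1, 0.030 without the Tc9 array numbered 2, -0.22 without the Tc9 array numbered 1 and -0.18 without the Tc1 array numbered 2.

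H2A and H2B genes often stand head to head and share the stretch between their start sites. Among the 44 genes with a promoter, 7 such pairs had start sites under 500 bases apart, with 163 to 280 bases between them. The 2 genes of a pair had changes of the same sign in 7 of 7 pairs, 6 of them negative. H2ac13 and H2bc13, which share the H2ac13 sequence shown above, had log2 changes of -0.18 and -0.20. H2ac8 and H2bc8 had -0.06 and -0.05, H2ac15 and H2bc15 -0.19 and -0.15, and H2ac11 and H2bc11 -0.14 and -0.24. The exception in direction was H2ac22 with H2bc22, at 0.0032 and 0.14. The octamer lay in both windows of 3 of the 7 pairs. With 35 of 49 members negative in all, agreement in sign within pairs is a description only.

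Core histone genes of a type have nearly identical coding sequences, and probe sequences were not used here. How far signal is shared between their probe sets was not tested, so changes of members of a type are not separate evidence. Only 3 of the 49 (H2bc1, H2bc21 and H3c1) lay below the negative-control level on all 4 arrays and 2 more (H2ac21 and H2bc4) on some.

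Genes that make and handle histone mRNA also stayed below the threshold. Of 16 listed genes of histone transcription and mRNA processing 15 were measured and 0 passed, with 0 at an unadjusted p under 0.05 and a median log2 change of -0.14. Slbp measured 1591 and 1258 in Tc1 and 1549 and 1170 in Tc9 (-0.07 ± 0.19). Npat measured 514 and 707 in Tc1 and 438 and 661 in Tc9 (-0.16 ± 0.24). Both overlapped between the groups. Sympk, the scaffold of the cleavage complex, measured 1059 and 1207 in Tc1 and 1100 and 1184 in Tc9 (0.01 ± 0.14), and Srrt and the cleavage nuclease gene Cpsf3 had changes of -0.10 and -0.07. Hinfp lay below the negative-control level on all 4 arrays. With the number as a block Cpsf2 and Eri1, a nuclease that trims histone mRNA ends, passed as lower (-0.25 and -0.40). So did 7.37% of all genes, and 1207 of the 7767 above the negative-control level on at least 1 array. Cpsf2 lost the call without the intensity trend.

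Genes of histone chaperones, which carry new histones to DNA, and genes listed with them, such as the acetyltransferase gene Hat1, were alike in this. Of 20 listed 19 were measured, 0 passed, 0 reached an unadjusted p under 0.05, and the median log2 change was -0.09. The brightest, Nap1l1, Rbbp7 and Mcm2, had changes of -0.09 ± 0.14, 0.03 ± 0.11 and -0.05 ± 0.12. With the number as a block 4 passed as lower (Nasp, Chaf1b, Hat1 and Supt16). So did 7.37% of all genes, and 1207 of the 7767 above the negative-control level on at least 1 array. When the block was fitted without the intensity trend, 0 of the 4 passed.

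The histone variants made outside S phase as well, mostly from polyadenylated mRNAs, did not move as 1 group. Of 11 listed 10 were measured and 0 passed limma over all genes, with a median log2 change of 0.01. H2az1 measured 3215 and 2851 in Tc1 and 3385 and 2940 in Tc9 (0.06 ± 0.13), and H3f3b 2719 and 2445 in Tc1 and 2746 and 2416 in Tc9 (-0.0013 ± 0.13). H2ax, the variant phosphorylated at DNA breaks, had a change of -0.24 ± 0.12. Cenpa, the H3 variant of centromeres, which is made in G2 phase, measured 455 and 378 in Tc1 and 270 and 184 in Tc9 (-0.85 ± 0.23; limma adjusted p = 0.354). Its Tc9 values both lay below its Tc1 values, but it did not pass without a block. With the number as a block its limma adjusted p was 3.06e-12, and 0.000899 without the intensity trend. Both block fits leave 1 residual degree of freedom, so these values do not measure the spread of Cenpa itself. H2az2, an H2A.Z gene, measured 135 and 121 in Tc1 and 226 and 195 in Tc9 (0.65 ± 0.21; limma adjusted p = 0.597), below the negative-control level on 2 arrays. Macroh2a1 had a change of 0.25 ± 0.17. With the number as a block 3 variants passed as higher (H2az2, H3f3a and Macroh2a1) and 2 as lower (Cenpa and H2ax), against 6.34% and 7.37% of all genes. Of the 7767 genes above the negative-control level on at least 1 array, 1068 and 1207 did. Of the 5 variants, H2az2 and Cenpa passed without the intensity trend.

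The S phase genes had a median log2 change of -0.21, beside -0.09 for the core histones. Of 26 listed 24 were measured and 0 passed. Before adjustment, 6 had p under 0.05 and lower values in Tc9. So did 2.34% of all genes, and 361 of the 7767 above the negative-control level on at least 1 array. The median was -0.18 in number 1 and -0.28 in number 2. Rrm2, the ribonucleotide reductase subunit that supplies deoxynucleotides, measured 1618 and 1677 in Tc1 and 1131 and 1138 in Tc9 (-0.53 ± 0.12; limma adjusted p = 0.225). The other 5, named for their count, were Ccne2 (-0.57, below the negative-control level on 2 arrays), Ccne1 (-0.46), Cdc45 (-0.43), Prim1 (-0.42) and Cdc6 (-0.42), which act at the start of S phase or at the replication fork. Pcna, the sliding clamp of DNA polymerase, measured 5604 and 5488 in Tc1 and 5587 and 5123 in Tc9 (-0.05 ± 0.11), and the helicase subunit genes Mcm3 and Mcm6 had changes of -0.12 ± 0.13 and 0.23 ± 0.11. With the number as a block 9 passed as lower and 1, Mcm6, as higher, against 7.37% and 6.34% of all genes. Of the 7767 genes above the negative-control level on at least 1 array, 1207 and 1068 did. Ccna2, E2f1, Fen1 and Mcm6 lost the call when the block was fitted without the intensity trend. Tk1 (-0.45), below the negative-control level on all 4 arrays, gained one. In that setting 7 passed as lower and 0 as higher, against 3.41% and 3.9% of all genes. The 6 genes were picked by their p-values, a filter that 0 of the 49 core histone genes met. Their changes are therefore no measure of the list beside the histones. Whether the S phase and histone lists differ was not tested.

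**Figure D4:**
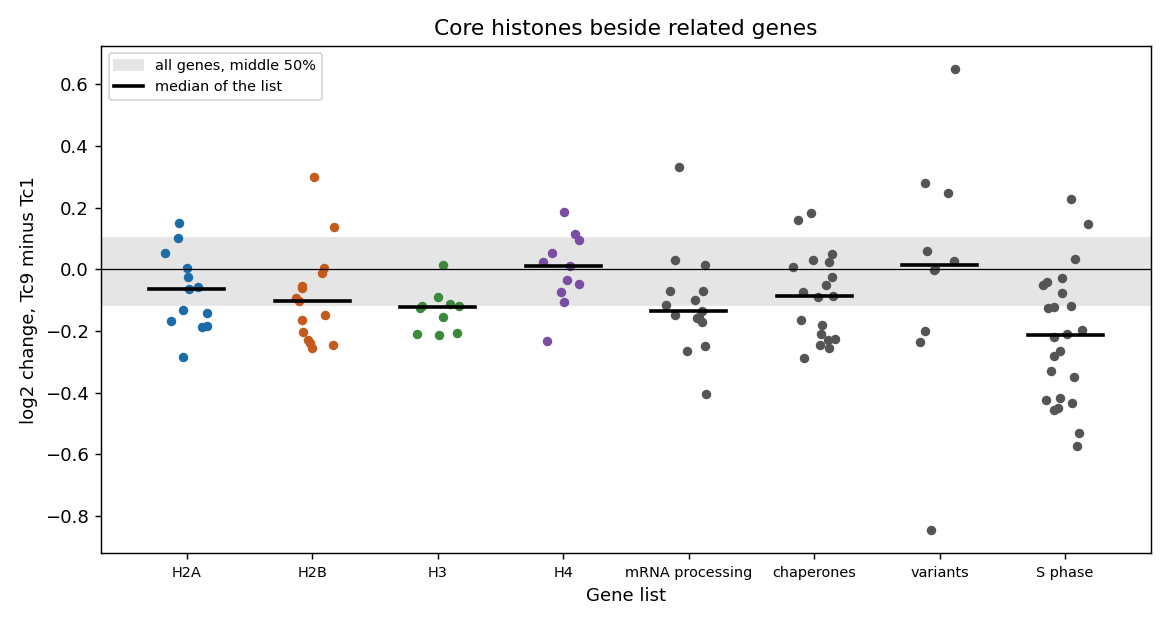
Log2 change, Tc9 minus Tc1, of the core histone genes by type and of 4 related lists; points are genes, black bars are medians and the grey band holds the middle 50% of all genes. The S phase median of -0.21 lies below the medians of the 4 histone types, which run from -0.12 for H3 to 0.01 for H4.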

How the data were processed

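Per the labels' protocols, T cells were cultured under Tc1 or Tc9 cytokine conditions, and total RNA was biotin labelled by the Affymetrix protocol. The authors deposited 1 intensity per probe set and array, on a linear scale as read from the values; how background was corrected and probes summarized, and with which software, is not stated in the labels. Of 28846 probe sets, 6640 controls were left out. The other 22206 were quantile normalized, 16 was added and log2 was taken, which understates changes of dim genes. Per gene, the probe set of highest mean was kept (19505 genes). Tc9 minus Tc1 was fitted by limma 3.58.1 under R 4.3.3 (lmFit, then eBayes, trend on, 2 residual and 5.09 prior degrees of freedom), with Benjamini-Hochberg adjustment over all genes. With the array number as a block 1 residual degree of freedom was left. Negative controls were 5222 probe sets, and their 95th percentile was taken per array on deposited intensities, 131 and 218 for Tc1 (numbers 1 and 2) and 123 and 197 for Tc9. Entrez identifiers matched 49 of 49 members to RefSeq. The number of arrays limits the precision.

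Members, gene lists and tests were chosen with earlier results of these data known. Named are, within each type, the 3 genes of highest mean and the most positive and negative changes among genes not below the negative-control level on all 4 arrays, members past the threshold, the 3 brightest of each related list and Slbp, Npat, H2az1, H3f3b, Cenpa and Pcna. Other genes were named after their values were seen. Alternatives were other normalizations, pseudocounts, variance models and filters, the array number as a block, and leaving out each array. Of the marker lists, 5 of 5 CD8 T cell, 2 of 2 CD4 T cell, 3 of 4 B cell, 4 of 4 myeloid and 2 of 2 NK cell genes were measured; the erythroid list was not analysed here.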

Additional observations from a re-analysis of the deposited data

How the results depend on the processing

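The count of core histone genes past the threshold was 0 under each alternative but one: with the replicate number as a block it was 9 of 49 (2674 of all genes, against 110 without the block). Arrays that share a number deviated together from their group means (r = 0.729 over all genes and 0.833 over the members, which are not independent replicates). The number difference was thus largely shared by the groups, with 2 arrays each. Whether numbers pair cultures or processing is not stated. The main fit leaves this difference in the spread. For H2ac13 the SE was 0.14, against 0.050 with the block. The block SE rests on the variance trend over all genes and hardly on H2ac13 itself. The fall in SE is therefore no measure of the number difference alone. With the block and no intensity trend 1426 of all genes passed. Related genes past the threshold numbered 21 of 68 with the block, 10 with the block and no trend, and 0 to 1 when an array was left out; the 1 was Cenpa, without the Tc9 array numbered 1 (log2 change -1.10, limma adjusted p = 0.0105). All-gene counts were 16 as deposited, 56 without the trend, and 186 to 274 when an array was left out. The higher and lower calls were 75 and 35 in the main setting, 13 and 3 as deposited and 48 and 29 with median centring.

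The median change of the 49 genes was -0.14 with each array centred on its median, against -0.09, and lay between -0.22 and 0.030 when an array was left out. For H2A the latter range was -0.28 to 0.072, for H2B -0.18 to -0.071, for H3 -0.26 to 0.032 and for H4 -0.0059 to 0.068. H3 was -0.17 as deposited, -0.19 with median centring, -0.13 with controls in the quantile step and -0.12 with a pseudocount of 64. H2B was -0.13 with median centring and -0.15 when genes under the median intensity were left out. Counting H3c14 and H3c15 once, a choice made after seeing the data, left the median at -0.09. Causes were not tested. Of 300 values of the 20 named members under the alternatives, 270 kept direction and side of the threshold. Another 24 changed sign without a call and 6 gained a call, all 6 with the block. The variance models, the block and the filters leave each log2 change as it was. Only the other settings could therefore change a direction.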
